A study of Mus musculus with 32 samples.

Results

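The sites described here are places where Runx3 was found on chromatin in a line of group 2 innate lymphoid cells (ILC2/b6) and not in a pro-T-like line (Scid.adh.2c2), and where Bcl11b was found in neither line. They were chosen by position alone: an ILC2/b6 Runx3 peak was kept where it overlapped, by 1 bp or more, no Scid.adh.2c2 Runx3 peak and no Bcl11b peak of either line. This rule kept 20231 of the 44938 ILC2/b6 Runx3 peaks (45.02%), out of 215616 peaks in the 8 lists of the series. The other ILC2/b6 Runx3 peaks were 12314 found in ILC2/b6 alone with a Bcl11b peak of either line, 2833 found in both lines and free of Bcl11b, and 9560 found in both lines with Bcl11b. Because Runx3 and Bcl11b peaks chose the sites, their absence from Scid.adh.2c2 and from Bcl11b peaks is a description and supports nothing.

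The series holds 32 libraries in 16 groups of 2, all from these lines of mouse cells. ChIP-seq mapped Bcl11b, GATA3, Runx1 and Runx3 in unmodified cells of each line, and each peak list was made from both libraries of a factor together. The stated fixation was DSG and then formaldehyde, but each line has input libraries labelled FA as well as input libraries labelled DSG. Fixation may thus have differed between factors, and its part in their overlaps was not tested. RNA-seq used cells of each line transduced with sgControl-CFP or with sgBcl11b-CFP, a guide against Bcl11b. ILC2/b6 cells grew in medium with 10 ng/ml each of the cytokines IL-2, IL-7 and IL-33, and Scid.adh.2c2 cells grew without added cytokine in the stated medium. Each line is 1 cell line, so differences between them are those of the lines and of their media. The labels do not say whether the 2 libraries of a group came from separate cultures, so p-values measure only the spread between these libraries.

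Runx proteins bind DNA through the Runt domain together with Cbfb, and can activate or repress a gene according to the corepressors and partner factors they meet. Runx3 is the family member most used by cytotoxic T cells and innate lymphoid cells, while Runx1 predominates in early T cell precursors. GATA3 is the defining transcription factor of ILC2, and Bcl11b, a zinc finger factor that works with Runx proteins in T cells, keeps ILC2 from taking on features of other lymphoid cells. A Bcl11b-free Runx3 site is therefore a place where Runx3 was detected without that partner.

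The promoters shown first are those where a site lay close to the start of an expressed gene. Of the sites, 916 were centred between 250 bases before and 50 after a start, and 309 of them could be matched to 308 RefSeq promoters of 300 bases (RefSeq, build GRCm38.p6). Csn2 and Csn1s1 encode caseins, the main milk proteins, and were printed, after their RNA levels had been seen, because their RNA was among the most abundant in ILC2/b6. Il2rg encodes the common gamma chain of the receptors for IL-2 and IL-7, and Kdm5b, a histone H3K4 demethylase, had a high peak score. The RefSeq promoter windows are chr5:87699376-87699675 (minus strand) for Csn2, chr5:87665958-87666257 (plus strand) for Csn1s1, chrX:101268206-101268505 (minus strand) for Il2rg and chr1:134559928-134560227 (plus strand) for Kdm5b, all in GRCm38.p6. The 250 bases before each start are given 5′ to 3′ on the gene's strand. Capitals mark the RUNX core TGTGGT, which reads ACCACA on the other strand, and the 9-letter STAT pattern TTCNNNGAA.
Csn2: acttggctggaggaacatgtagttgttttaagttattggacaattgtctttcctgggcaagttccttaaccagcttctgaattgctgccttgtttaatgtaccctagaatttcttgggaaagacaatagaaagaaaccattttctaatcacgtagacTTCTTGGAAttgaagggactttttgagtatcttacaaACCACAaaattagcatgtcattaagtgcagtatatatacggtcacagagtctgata
Csn1s1: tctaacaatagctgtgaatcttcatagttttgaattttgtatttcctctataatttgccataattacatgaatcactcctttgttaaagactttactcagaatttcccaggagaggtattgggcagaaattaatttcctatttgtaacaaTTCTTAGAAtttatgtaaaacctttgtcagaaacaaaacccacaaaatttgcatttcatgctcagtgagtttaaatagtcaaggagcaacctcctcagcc
Il2rg: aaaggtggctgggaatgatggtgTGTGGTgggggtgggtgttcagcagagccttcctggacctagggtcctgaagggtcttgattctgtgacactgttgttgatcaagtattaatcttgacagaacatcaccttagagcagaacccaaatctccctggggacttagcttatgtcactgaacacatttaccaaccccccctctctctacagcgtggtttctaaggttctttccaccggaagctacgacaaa
Kdm5b: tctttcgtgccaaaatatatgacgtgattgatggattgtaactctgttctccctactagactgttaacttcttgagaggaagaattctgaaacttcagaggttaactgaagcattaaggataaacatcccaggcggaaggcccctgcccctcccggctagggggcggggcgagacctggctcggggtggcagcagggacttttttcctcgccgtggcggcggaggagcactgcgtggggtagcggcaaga

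The Csn2 stretch holds a RUNX core whose first base is at -56, counted from the start, and a STAT pattern that begins at -93. The Csn1s1 stretch holds a STAT pattern from -100 and no RUNX core. The Il2rg stretch holds a RUNX core at -227, which lies outside the Runx3 site, 253 bp wide and centred at -26 bp. The Kdm5b stretch holds neither. Across the 308 promoters with a site, searched over all 300 bases on both strands, 14.6% held the RUNX core, within the interval of the site or outside it. The share was 15.4% of all 10079 promoters of that length, 12.3% of the 4064 whose gene reached 1 RPKM in the ILC2/b6 control libraries, and 10.8% of the 831 of these with no ILC2/b6 Runx3 peak within 1 kb of a start. The STAT pattern was in 9.09% of the promoters with a site and in 8.93% of all promoters. The mean GC content was 59.0% in the promoters with a site and 54.1% in all. A match is a description of the letters and not a measured binding site.

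The casein cluster on chromosome 5 carried Bcl11b-free ILC2/b6-only Runx3 sites at 3 of its gene starts. The site at Csn1s1 was at chr5:88095026-88095278 (mm9), centred at -81 bp from the start, with a peak score of 92.5. The site at Csn2 was at chr5:88128389-88128641, centred at -65 bp, with a score of 44.4, and the one at Csn3 was at chr5:88354368-88354620, centred at -110 bp, with a score of 29.7. All 3 also carried an ILC2/b6 Runx1 peak, and the one at Csn1s1 a GATA3 peak. The peak score is the authors' own value and ranks peaks only within a list, in which the median over all ILC2/b6 Runx3 peaks was 43.4.

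Casein RNA was abundant in ILC2/b6. Csn2 was at 3176 and 3588 RPKM in the control libraries and at 4398 and 4205 RPKM with the Bcl11b guide, the fifth highest mean of all genes in the controls. Csn1s1 was at 3305 and 3450 RPKM in the controls and at 3674 and 3477 RPKM with the guide. In the pro-T-like line Csn2 was at 1.04 and 0.322 RPKM in the controls and Csn1s1 at 1.98 and 0.432 RPKM. The libraries of the lines did not overlap for either gene. The tables of the lines were normalized separately, so differences in level between lines were not tested here or in what follows.

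With the Bcl11b guide in ILC2/b6, Csn2 rose by 0.35 ± 0.0627 (log2 difference ± SE, adjusted p = 0.0123 in limma with Benjamini-Hochberg adjustment over all genes tested). Csn3 rose by 0.31 ± 0.0375 (limma adjusted p = 0.00264), from 81.1 and 83.2 RPKM to 104 and 99.7 RPKM, and Csn1s1 differed by 0.08 ± 0.0467 (limma adjusted p = 0.286). For Csn2 and Csn3 both guide libraries lay above both control libraries, and the Csn2 call was lost when genes of every level were kept in the fit (limma adjusted p = 0.13).

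The Bcl11b-free ILC2/b6-only sites had lower peak scores than the other ILC2/b6 Runx3 peaks. Their median score was 27.2, with quartiles of 19.7 and 42.3 and a highest value of 773.7. The medians were 64.8 for ILC2/b6-only peaks with Bcl11b, 48.0 for shared peaks free of Bcl11b and 79.5 for shared peaks with Bcl11b. They made up 79.9% of the lowest of 4 score bins of nearly equal size in the Runx3 list, then 57.4% and 32.4% of the middle bins, and 10.7% of the highest bin. Just inside the rule lay 360 sites within 100 bp of a peak that would have removed them, with a median score of 44.6. Just outside lay 650 peaks removed by an overlap of 100 bp or less, with a median score of 51.6. A peak list ends at its own lowest score, so a site free of Bcl11b is one with no Bcl11b peak over that limit.

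**Figure D1:**
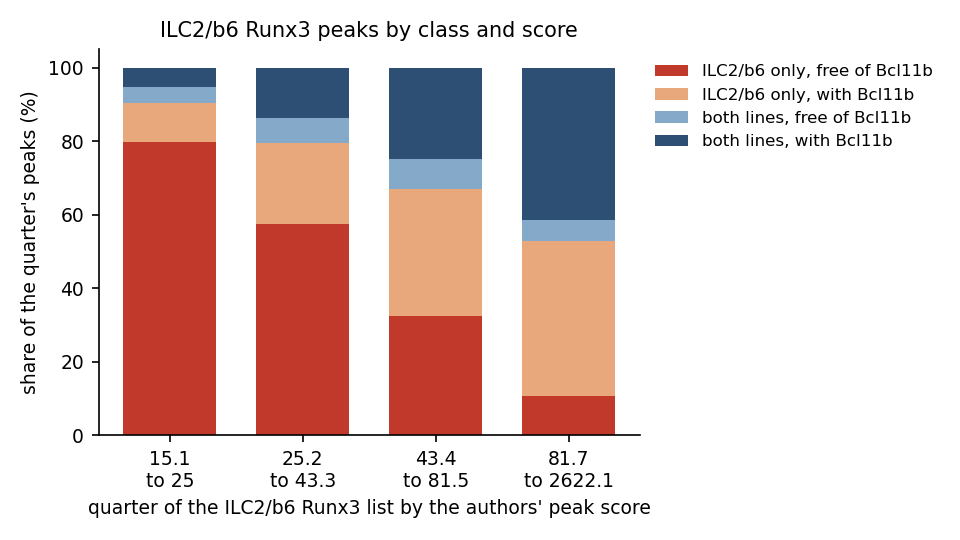
Share of ILC2/b6 Runx3 peaks (%) in each of 4 classes, in 4 bins of the list ranked on the authors' peak score. The Bcl11b-free ILC2/b6-only sites went from 79.9% of the lowest bin to 10.7% of the highest.

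Most of the highest scores belonged to repeated DNA. Of the 10 highest-scored sites, 9 lay in the Rn4.5s array on chromosome 6, copies of the 4.5S RNA gene, and the other lay in a telomere-like simple repeat on chromosome X. Outside repeats and that array, the highest score (442.5) was at chr7:87561927-87562179, at -11731 bp from the start of Furin, which encodes a proprotein convertase. The next sites lay near Eapp, a regulator of E2F activity (404.4 and 402.7), in an intron of Lss, an enzyme of sterol synthesis (398.1), in an intron of 4932438H23Rik (354.7) and in the first intron of Kdm6b, an H3K27 demethylase (346.5). A site at Cish, a cytokine-induced inhibitor of cytokine receptor signalling, stood 83 bp after the start at chr9:107198947-107199199 with a score of 302.9, and a site at -2628 bp from Tnfrsf9, a costimulatory receptor, had a score of 278.2. In all, 4740 sites (23.4%) lay in a repeat named in the annotation, and 71 on unplaced or random contigs.

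The genes nearest to the strongest sites outside repeats varied in how they were expressed in the lines. Furin was at 750.0 and 735 RPKM in the ILC2/b6 controls and at 6.51 and 6.44 RPKM in the Scid.adh.2c2 controls. Cish was at 98.5 and 102 RPKM in ILC2/b6 and at 0.049 and 0.021 RPKM in Scid.adh.2c2, and Tnfrsf9 was at 401 and 446 RPKM against 0.749 and 0.438 RPKM. Eapp, at 5.81 and 5.86 RPKM against 6.78 and 7.2 RPKM, and Lss, at 12.3 and 12.2 RPKM against 13.3 and 12.6 RPKM, did not show such a gap. Kdm6b was at 16.5 and 17.1 RPKM against 20.8 and 21.3 RPKM, and Sfi1 at 4.61 and 5.2 RPKM against 7.87 and 9.6 RPKM, so both were higher in the Scid.adh.2c2 controls. Of the others with a score above that of Tnfrsf9, 4932438H23Rik, Fam105a and Pisd-ps3 were higher in the ILC2/b6 controls, and Gm16291 was listed at 0 in the controls of both lines.

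Runx1 and GATA3 peaks were not used to choose the sites. In ILC2/b6, 6660 sites (32.9%) carried a Runx1 peak and 4405 (21.8%) a GATA3 peak, while 11230 (55.5%) carried neither. The Runx1 and Runx3 centres at shared sites were a median of 22 bp apart, and the GATA3 and Runx3 centres 34 bp apart. In Scid.adh.2c2 92 of the sites (0.455%) carried a Runx1 peak and 1142 (5.64%) a GATA3 peak. Scid.adh.2c2 Runx1 was at 2.18% in ILC2/b6-only peaks with Bcl11b, 42.0% in shared peaks free of Bcl11b and 78.2% in shared peaks with Bcl11b. For Scid.adh.2c2 GATA3 these shares were 9.53%, 13.7% and 18.1%. Most peaks with Scid.adh.2c2 Runx1 were in the shared classes, which the rule left out, so the low Runx1 share largely follows from the rule. For the ILC2/b6 partner peaks, ILC2/b6-only Runx3 peaks with Bcl11b carried Runx1 at 77.7% and GATA3 at 43.7%. Shared peaks free of Bcl11b were closer to the sites for Runx1 (38.3%, with 54.7% carrying neither) and had GATA3 at 13.8%, and shared peaks with Bcl11b had Runx1 at 69.4% and GATA3 at 20.6%. There is 1 list per factor and line, so these shares have no replicate and no test.

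The lower Runx1 and GATA3 shares than in ILC2/b6-only peaks with Bcl11b stood within each score bin, whose limits were set on Runx3 scores. The Runx1 differences from the shared classes did not all stand. In the lowest bin 12.6% of the Bcl11b-free ILC2/b6-only sites carried an ILC2/b6 Runx1 peak, against 25.7% of the ILC2/b6-only peaks with Bcl11b. In the highest bin the shares were 81.0% and 96.4%. For GATA3 they were 17.7% and 26.7% in the lowest bin and 32.3% and 54.4% in the highest. Peaks of both lines free of Bcl11b had Runx1 shares from 3.80% in the lowest bin to 76.4% in the highest, under the sites in every bin. Shared peaks with Bcl11b were under the sites in the lowest bin (6.81%) and the second (31.3% against 34.9%). They were close to the sites in the third (64.3% against 63.3%) and above them in the highest (92.9%). The Runx1 share grew from each bin to the next in all 4 classes.

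**Figure D2:**
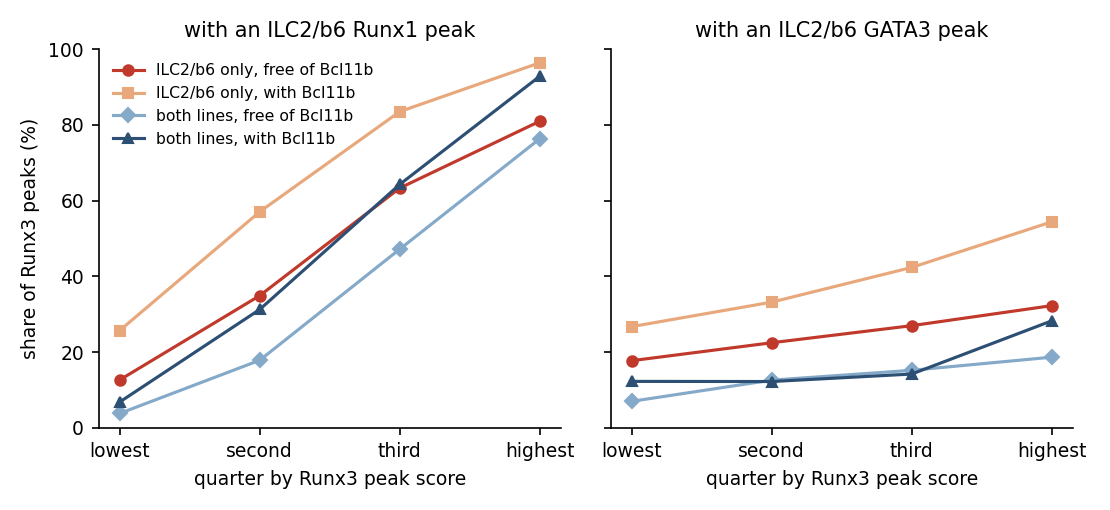
Share of ILC2/b6 Runx3 peaks (%) that carried an ILC2/b6 Runx1 peak (left) or an ILC2/b6 GATA3 peak (right), by score bin, for each of the 4 classes. For the Bcl11b-free ILC2/b6-only sites the Runx1 share went from 12.6% to 81.0% and the GATA3 share from 17.7% to 32.3%.

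Most GATA3 peaks at the sites were listed in ILC2/b6 and not in Scid.adh.2c2. Of the 4405 sites with ILC2/b6 GATA3, 3372 (76.5%) had no Scid.adh.2c2 GATA3 peak, close to the 78.9% for ILC2/b6-only Runx3 peaks with Bcl11b. In the classes shared by both lines the values were 23.7% without Bcl11b and 24.5% with it. Conversely, 1033 of the 1142 sites with Scid.adh.2c2 GATA3 (90.5%) also had ILC2/b6 GATA3. At those places GATA3 was listed in both lines and Runx3 in ILC2/b6 alone.

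The sites lay mostly far from gene starts. Introns held 48.2% of them, intergenic DNA 38.1% and annotated promoters 7.93%, and the median distance to the nearest start was 19547 bp. The promoter share was 11.6% for ILC2/b6-only peaks with Bcl11b, 32.0% for shared peaks free of Bcl11b and 48.0% for shared peaks with Bcl11b. LTR elements, the remains of retroviruses, held 8.67% of the sites, 6.85% of ILC2/b6-only peaks with Bcl11b, 5.44% of shared peaks free of Bcl11b and 2.94% of shared peaks with Bcl11b. Sites without Runx1 and GATA3 had a promoter share of 9.50%, and those with both 2.66%. The median gap to the nearest ILC2/b6 Bcl11b peak was 16551.5 bp, and 7669 sites (37.9%) had one within 10 kb, so Bcl11b was often in the neighbourhood of sites that it did not overlap.

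Most sites stood alone along the chromosome. Joined over gaps of up to 10 kb, 12146 sites (60.0%) had no other site near, and 63 chains held 5 or more. The longest, with 9 sites over 47857 bp between 2610024D14Rik and Vps54 on chromosome 11, had a median score of 22.3 and 2 ILC2/b6 Bcl11b peaks inside. A chain of 8 sites at Zc3h12c, a ribonuclease-family gene on chromosome 9, spanned 34011 bp with 4 Runx1 and 4 GATA3 sites. Of the chains of 5 or more, 32 had no ILC2/b6 Bcl11b peak inside.

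Assigned to the nearest start, the sites fell to 9161 of the 24475 genes in the RNA tables (37.4%), and 357 genes had 7 or more. Maf, a bZIP factor of type 2 cytokine-producing lymphocytes, had the most with 32, of which 12 carried Runx1 and 6 GATA3. B3galt2, a galactosyltransferase, and the long noncoding RNA 1700061F12Rik had 24 each. Inpp4b, a phosphoinositide phosphatase, had 22, Elmo1, an activator of Rac signalling, and Pde4b, a cAMP phosphodiesterase, had 20, Fam46a, of the non-canonical poly(A) polymerase family, and Frmd4a 19, and Btg1, an antiproliferative gene, 18. Mir6388 (21 sites), H2afy3 (20) and 1700016G22Rik (18) were under 1 RPKM in every library. Gata3 itself had 14 sites, Runx2 15, Runx1 5, Bcl11b 4, Runx3 2 and Cbfb 1.

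The share of genes with RNA in ILC2/b6 grew with the number of sites. The share of genes at 1 RPKM or more in the ILC2/b6 controls was 34.1% with no site, 52.1% with 1, 57.4% with 2 to 3, 66.6% with 4 to 6 and 75.1% with 7 or more. In the Scid.adh.2c2 controls it was 35.2%, 49.1%, 48.8%, 49.9% and 42.6%. Among genes at 1 RPKM or more in the controls of either line, the median log2 difference, ILC2/b6 minus Scid.adh.2c2, went from -0.43 with no site to 1.80 with 7 or more. Gene length moved with the number of sites: the median span was 9785 bp with no site and 87202 bp with 7 or more, and the share of genes with an ILC2/b6 Bcl11b peak went from 29.3% to 95.5%. Their part in the pattern was not tested. In bulk RNA of this kind, fewer cells expressing a gene and less RNA per cell cannot be told apart.

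**Figure D3:**
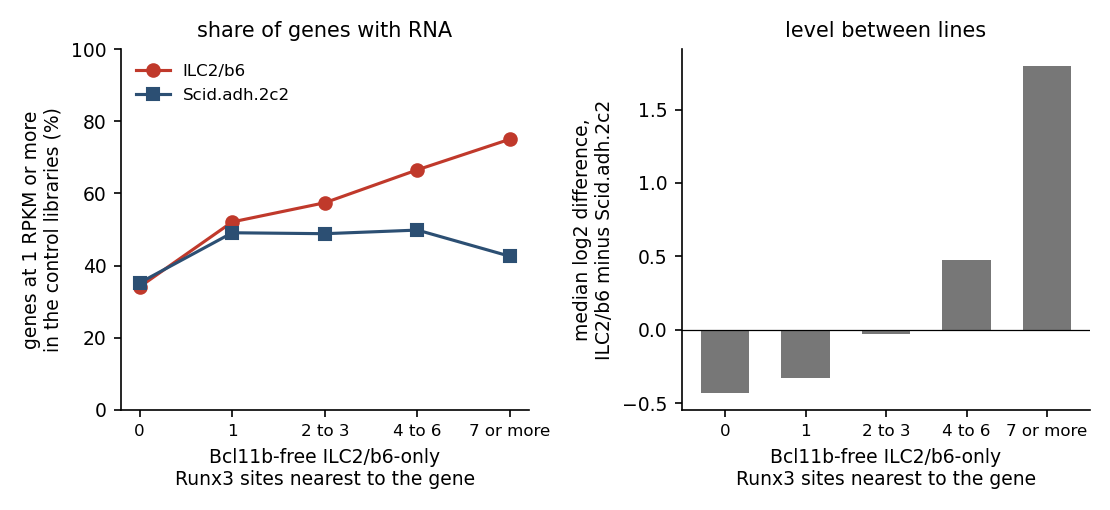
Left, share of genes (%) at 1 RPKM or more in the mean of the control libraries of each line, by number of nearest Bcl11b-free ILC2/b6-only Runx3 sites. Right, median log2 difference in control RNA between the lines for genes at 1 RPKM or more in either, from -0.43 with no site to 1.80 with 7 or more.

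Before the guide's effect on these genes, its target was read. Bcl11b RNA was at 6.85 and 6.33 RPKM in the ILC2/b6 controls and at 7.04 and 7.24 RPKM with the Bcl11b guide, and at 47.0 and 49.5 RPKM in the Scid.adh.2c2 controls and at 47.1 and 46.8 RPKM with the guide. Neither difference passed the test (limma adjusted p = 0.278 and 0.455). In Scid.adh.2c2 the scaling decided this call: the Bcl11b difference was -0.17 with median-centred values (limma adjusted p = 0.00856) and -0.11 with quantile normalization (limma adjusted p = 0.046), both called lower. In ILC2/b6 no setting tried gave a call. A guide can disable a protein through small insertions and deletions that leave the RNA, so this level checks neither the label nor the loss of protein, and the RNA groups are taken from their labels. Of 12 ILC2 defining markers 11 (not Thy1) reached 1 RPKM in ILC2/b6, and 9 (not Il1rl1, Icos and Areg) in Scid.adh.2c2, where the control levels of Rora, Il17rb and Thy1 were above those in ILC2/b6. Their summed level was 9242 and 9411 RPKM in the ILC2/b6 controls and 369 and 397 RPKM in the Scid.adh.2c2 controls. Of 10 pro-T markers 8 (not Rag2 and Dntt) reached 1 RPKM in Scid.adh.2c2 and 3 in ILC2/b6. Recovered depths were 34.7 to 43.7 M reads.

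The Runx genes changed little in ILC2/b6 and Runx3 changed in Scid.adh.2c2. In ILC2/b6 Runx3 was at 46.5 and 42.9 RPKM in the controls and at 43.7 RPKM in both guide libraries, with no call (limma adjusted p = 0.694). In Scid.adh.2c2, where no Runx3 peak met these sites, it was at 3.07 and 3.28 RPKM in the controls and at 18.0 and 18.2 RPKM with the guide, a rise of 2.34 ± 0.0657 (log2 ± SE, limma adjusted p = 2.58e-07). The peak lists come from unmodified cells, so whether these sites gained Runx3 in the guide cells was not measured. Runx2 fell in ILC2/b6 from 5.96 and 5.75 to 4.5 and 4.58 RPKM (log2 -0.33 ± 0.0595, limma adjusted p = 0.012; 0.0587 with no expression filter), while Runx1, Cbfb and Gata3 passed no test there. In Scid.adh.2c2 Gata3 rose by 0.22 ± 0.0452 (limma adjusted p = 0.00506), a call lost without the second guide library (limma adjusted p = 0.0586) and under median-centring (limma adjusted p = 0.142).

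In ILC2/b6 the guide changed 928 of the 5226 tested genes nearest to a site (17.8%), against 14.5% of all genes tested. Of these 511 were higher and 417 lower, shares of 9.78% and 7.98%, against 8.32% higher and 6.21% lower over all genes. Among tested genes with a site and no ILC2/b6 Bcl11b peak, 140 of 1202 were called (11.6%), and among genes with both 788 of 4024 (19.6%). Among genes without a site the values were 9.23% with no ILC2/b6 Bcl11b peak and 12.5% with one. The share called went from 11.4% with no site through 14.3%, 18.6% and 24.6% to 27.4% with 7 or more. Among genes with no ILC2/b6 Bcl11b peak it went from 9.23% with no site to 17.9% with 4 to 6 (78 genes), with 1 of the 6 genes with 7 or more called. Among genes with 3 or more such peaks, which held 220 of the 270 genes with 7 or more sites, it was 18.3% with no site and 23.4% with 1. It then stayed at 27.7%, 29.5% and 28.6%. Leaving out a guide library moved the count: without the first guide library 582 genes were called and without the second 484. Median-centring left 966 calls and moved the higher share of them from 55.1% to 40.8%, so the balance of rises and falls depends on the scaling.

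In Scid.adh.2c2, where these sites had no Runx3 peak, 2777 of the 4646 tested genes nearest to a site were called (59.8%), against 57.8% of all genes tested. Rises were 1789 (38.5%), against 35.1% over all genes, and falls were 988 (21.3%), against 22.7%. The share that rose went from 32.3% with no site through 35.5%, 38.8% and 46.5% to 55.1% with 7 or more, and the share that fell went from 23.9% to 15.6%. Genes that passed the expression filter through the guide libraries alone could only be called higher, and those that passed through the controls alone only lower. The part of such genes in these shares was not counted. Among genes with no Scid.adh.2c2 Bcl11b peak the share that rose was 29.4% with no site and 32.9% with 4 to 6 (82 genes), but 15.4% of the 13 genes with 7 or more, and among genes with 3 or more such peaks it went from 38.9% to 63.9%. The log2 median over all genes was 0.13 higher in the guide libraries of this line, and median-centring moved the higher share of all calls from 60.7% to 38.5% and that of genes nearest to a site from 64.4% to 43.2%. Under it the share that rose still went from 21.4% with no site to 44.9% with 7 or more. Without the first guide library 1805 genes nearest to a site were called and without the second 1787.

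**Figure D4:**
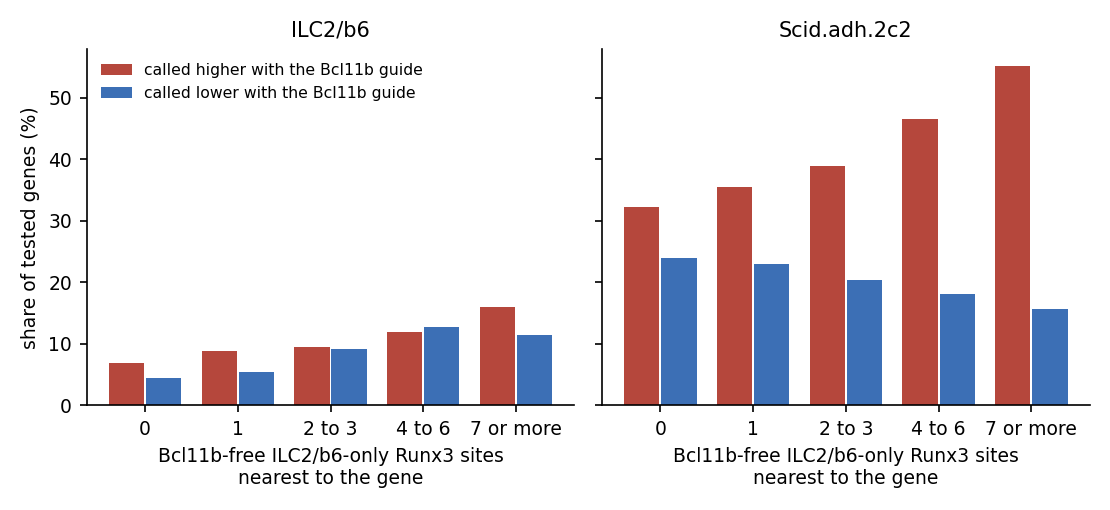
Share of tested genes (%) called higher or lower with the Bcl11b guide (limma, adjusted p under 0.05) in each line, by number of nearest Bcl11b-free ILC2/b6-only Runx3 sites. Rises in Scid.adh.2c2 went from 32.3% with no site to 55.1% with 7 or more. In ILC2/b6 rises went from 6.89% to 15.9%. Falls there went from 4.47% with no site to 12.7% with 4 to 6 and 11.5% with 7 or more. Genes that passed the expression filter through 1 group alone could be called in 1 direction only.

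Several of the genes with the most sites changed in ILC2/b6, where 27.4% of all tested genes with 7 or more sites were called. The changed genes were also nearest to many ILC2/b6 Bcl11b peaks: 21 for Maf, 17 for Pde4b, 11 for Btg1 and 21 for Inpp4b. Fam46a had 16 and B3galt2 9. Those that passed no test had such peaks too: 17 for Elmo1, 15 for Frmd4a and 32 for 1700061F12Rik. The part of these peaks in the changes was not tested. Maf fell from 44.4 and 43.9 RPKM to 33.4 and 34.5 RPKM (log2 -0.38 ± 0.0383, limma adjusted p = 0.00131). Pde4b fell from 15.5 and 15.8 RPKM to 9.54 and 8.92 RPKM (log2 -0.73 ± 0.0521, limma adjusted p = 0.000285), and Btg1 from 84.4 and 89.3 to 72.5 and 74.1 RPKM (log2 -0.24 ± 0.0405, limma adjusted p = 0.00931; 0.0511 with no expression filter). For each of these genes the guide libraries lay under both controls. Inpp4b rose from 7.29 and 8.13 RPKM to 10.5 and 10.9 RPKM (log2 0.45 ± 0.0637, limma adjusted p = 0.00474). Fam46a fell by 0.22 ± 0.0481 on the log2 scale (limma adjusted p = 0.0255), a call lost without the first guide library (limma adjusted p = 0.108) and with no expression filter (0.101). B3galt2 rose by 0.33 ± 0.0742 (limma adjusted p = 0.0289), lost without the first control library (limma adjusted p = 0.0556) or the first guide library (limma adjusted p = 0.0578) and with no expression filter (0.117). Elmo1, Frmd4a and 1700061F12Rik passed no test in ILC2/b6. Of these 9 genes only Elmo1, Frmd4a and Btg1 reached 1 RPKM in Scid.adh.2c2, where Frmd4a fell by 1.39 ± 0.0989 (limma adjusted p = 2.59e-05).

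**Figure D5:**
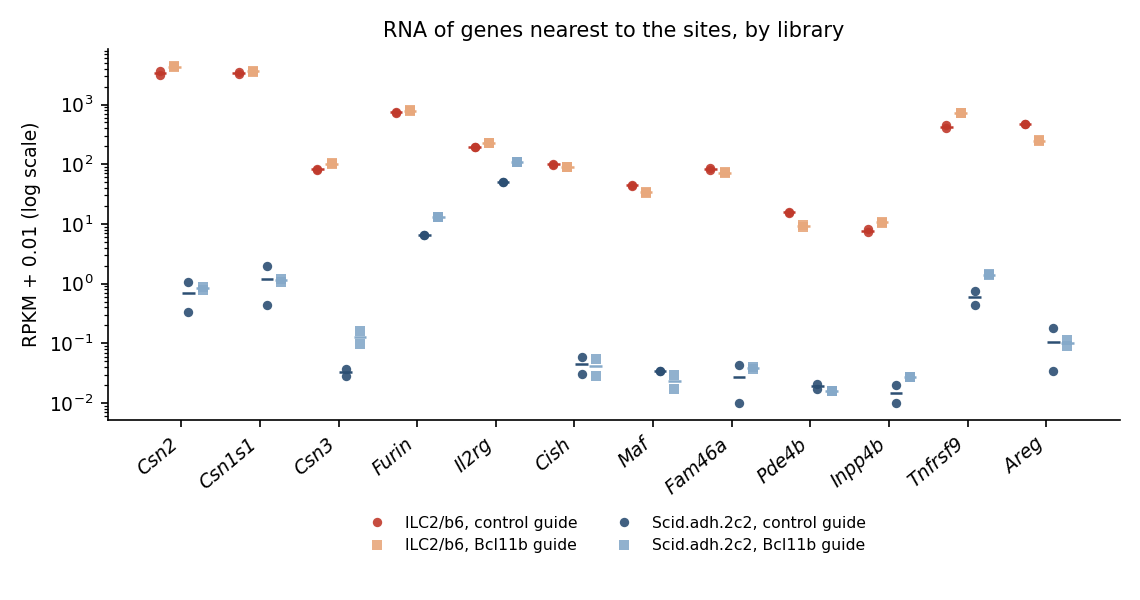
RNA (RPKM + 0.01, log axis) of 12 genes nearest to Bcl11b-free ILC2/b6-only Runx3 sites, 1 point per library and a line at the mean of each group of 2. The genes were picked for display, several after their values were seen, and Eapp, Lss, Kdm6b and Sfi1 are not among them. All 12 shown were higher in ILC2/b6 control libraries than in Scid.adh.2c2 controls. Among those called with the Bcl11b guide in ILC2/b6, Areg and Pde4b were lower and Tnfrsf9 and Inpp4b higher.

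The largest rises in ILC2/b6 next to a site began with a mast cell gene. Cma1, mast cell chymase, went from 1.93 and 2.5 RPKM to 24.1 and 24.3 RPKM (log2 3.20 ± 0.0949, limma adjusted p = 9.33e-06). Its 1 site had a score of 18.1, near the lower end of the list, and no Runx1 or GATA3 peak. Tmem119, a membrane protein known from microglia and bone, rose by 2.93 ± 0.0969 (limma adjusted p = 1.42e-05) and C5ar1, the C5a receptor, by 2.90 ± 0.111 (limma adjusted p = 2.03e-05), both from under 0.2 RPKM in each control. The summed level of 16 myeloid and mast cell markers was 412 and 497 RPKM in the controls and 873 and 869 RPKM with the guide. Of the 16, 5 reached 1 RPKM, and Mcpt8 made up most of the sum in every library. Mcpt8, a basophil protease, went from 391 and 478 to 795 and 789 RPKM, Tpsb2 from 5.18 and 5.66 to 44.7 and 44.9 RPKM, Cd68 from 1.58 and 1.65 to 0.917 and 1.11 RPKM and Cebpb from 11.3 and 9.59 to 8.38 and 8.92 RPKM, while Spi1, Csf1r, Lyz2, Ms4a2 and Elane were listed at 0 in all 4 libraries. The summed stromal and epithelial markers were at 29.4 and 32.0 RPKM in the controls and 45.4 and 43.7 RPKM with the guide, and the erythroid ones at 34.8 and 31.4 RPKM and then 54.7 RPKM in both. The part of these markers in the rises was not tested. Cd63, a tetraspanin of secretory vesicles, rose from 78.9 and 77.6 RPKM to 192 and 185 RPKM (log2 1.26 ± 0.0357, limma adjusted p = 9.33e-06), and its 1 site carried GATA3. Pilra, Sh2d1b1, Fgf15, Mob3c, Fndc3a and Ccbe1 completed the 10 largest, with log2 rises of 1.16 to 1.73. Of these 10 genes, Tmem119, Fgf15 and Cd63 were nearest to no ILC2/b6 Bcl11b peak. Tmem119, C5ar1, Ccbe1, Pilra, Sh2d1b1 and Fgf15 were under 1 RPKM in both controls and passed the expression filter through the guide libraries alone. For these genes only a rise could be called.

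The largest falls included an ILC2 effector. Areg, amphiregulin, the tissue repair ligand made by ILC2, fell from 476 and 469.9 RPKM to 243 and 254 RPKM (log2 -0.93 ± 0.0369, limma adjusted p = 2.08e-05) and was nearest to 4 sites, none with Runx1 or GATA3. Areg was also nearest to 3 ILC2/b6 Bcl11b peaks. Fabp5, a fatty acid carrier, fell from 532 and 489 RPKM to 263 and 250.5 RPKM (log2 -0.99 ± 0.0491, limma adjusted p = 5.86e-05) and fell in Scid.adh.2c2 too, by 1.82 ± 0.122 (limma adjusted p = 1.9e-05). Filip1, a filamin-binding protein with 10 sites, fell by 1.03 ± 0.0664 (limma adjusted p = 0.000218), and Prr5l, a component of mTORC2 with 9 sites, by 1.17 ± 0.12 (limma adjusted p = 0.00138). Smpdl3a fell by 1.16 ± 0.081 (limma adjusted p = 0.000273), Tmem86a by 1.18 ± 0.127 (limma adjusted p = 0.00158) and Zpbp2 by 0.98 ± 0.0992 (limma adjusted p = 0.00127). The other 3 of the 10 largest falls, Snord58b, Scarna17 and Mir5130, are RNAs too short to be measured well with these libraries. Prr5l, Snord58b and Scarna17 passed the expression filter through the controls alone, so only a fall could be called for them.

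Many ILC2 and signalling genes had a site, and those called moved in both directions. Of 30 ILC2 identity and effector genes 26 had a site, against 37.4% of all genes and 5226 of the 10526 genes tested in ILC2/b6. The tested genes are the closer comparison, because 29 of the 30 were tested. Of the 25 tested with a site, 3 rose and 7 fell in ILC2/b6, against 8.32% higher and 6.21% lower over all genes. Over all 29 tested genes the median log2 difference was -0.01, against 0.02 over all genes tested. Each of the 30 genes was also nearest to an ILC2/b6 Bcl11b peak, with 8 such peaks for Il13 and 10 for Il7r. Among all tested genes with both a site and such a peak, 19.6% were called. The part of these peaks in the calls was not tested. Il13 (1 site) went from 4472 and 4406 RPKM to 3025 and 3151 RPKM (log2 -0.52 ± 0.0421, limma adjusted p = 0.000487), and Il5 (2 sites) from 2671 and 2869 to 1881 and 1874 RPKM (log2 -0.56 ± 0.0458, limma adjusted p = 0.000518). Icos, a costimulator of ILC2 with 9 sites, one of them at -79 bp from the start with a score of 131.6, rose from 40.1 and 46.0 RPKM to 59.0 and 58.4 RPKM (log2 0.45 ± 0.0629, limma adjusted p = 0.00474), a call lost with no expression filter (limma adjusted p = 0.0541). Il7r (11 sites) and Hlf (8 sites, 7 with Runx1) passed no test in ILC2/b6. Of 32 cytokine receptor and signal regulator genes 28 had a site, and 3 rose and 7 fell of the 25 tested with one, set against the same 8.32% and 6.21%. Il2rg rose from 193 and 197 RPKM to 231 and 229 RPKM (log2 0.23 ± 0.0332, limma adjusted p = 0.00482), and in Scid.adh.2c2 from 50.1 and 49.8 to 111 and 110.2 RPKM (log2 1.14 ± 0.0354, limma adjusted p = 3.76e-07). Cish fell by 0.16 ± 0.0363 (limma adjusted p = 0.0299), a call lost without the first guide library (limma adjusted p = 0.206) or the second (limma adjusted p = 0.118), and with no expression filter (limma adjusted p = 0.0744).

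Of the AP-1, NF-kB and immediate early genes 21 of 26 had a site, against 37.4% of all genes and 5226 of the 10526 tested in ILC2/b6. Of the 17 tested with a site in ILC2/b6, 4 rose and 5 fell, against 8.32% and 6.21% over all genes. The falls were Maf, Fos, Egr1, Dusp1 and Dusp2, of which Fos and Dusp2 lost the call with no expression filter (limma adjusted p = 0.124 and 0.137), and Dusp2 also without the first control library (0.105) or the second guide library (0.0631). Egr1, an immediate early factor, went from 27.6 and 30.4 to 16.8 and 16.5 RPKM (log2 -0.78 ± 0.0540, limma adjusted p = 0.000271), while Tnfaip3, an NF-kB inhibitor with 7 sites, rose by 0.34 ± 0.0463 (limma adjusted p = 0.0041). Of 21 adhesion and trafficking genes 16 had a site, and 2 rose and 3 fell of the 14 tested with one. Among them S1pr1, the receptor for tissue exit, with 10 sites, fell from 6.75 and 5.67 to 3.92 and 3.55 RPKM (log2 -0.66 ± 0.091, limma adjusted p = 0.00438), a call lost with no expression filter (limma adjusted p = 0.053). Of 18 costimulatory and checkpoint receptors 14 had a site, and 3 rose and 1 fell of the 11 tested with one. Among them Tnfrsf9 rose from 401 and 446 to 712 and 714 RPKM (log2 0.75 ± 0.0516, limma adjusted p = 0.000271), and Ctla4, with 6 sites, fell by 0.33 ± 0.0556 (limma adjusted p = 0.00942; 0.066 with no expression filter). Ahr, a ligand-activated factor of ILC3 with 10 sites, rose from 5.17 and 5.71 to 7.95 and 8.32 RPKM (log2 0.54 ± 0.0656, limma adjusted p = 0.00254), and was the 1 called gene of the 4 tested with a site in the ILC3 and type 17 list. Il17a, Il17f and Ccr6, of the same list, had 2, 3 and 2 sites and stayed under 0.1 RPKM in all 8 libraries. Each called gene named from these lists was also nearest to ILC2/b6 Bcl11b peaks, from 2 for Dusp2 and S1pr1 to 21 for Maf.

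NK, type 1 and cytotoxic genes, which Runx3 is known to govern in T cells, had 36 sites at 17 of 28 genes. Over all genes 37.4% had a site, as did 5226 of the 10526 genes tested in ILC2/b6 and 4646 of the 10221 tested in Scid.adh.2c2. In ILC2/b6 2 of the 8 tested with a site rose and 0 fell, against 8.32% higher and 6.21% lower over all genes. Of the 4 list genes tested there without a site, 2 rose and Gzma fell. In Scid.adh.2c2 8 of the 9 tested with a site rose, and so did 7 of the 8 list genes tested without one, against 35.1% over all genes. Of these, Ifng, Prf1, Tyrobp, Ccl3 and Cxcr6 with a site, and Ncr1 and Ccl4 without one, passed the filter through the guide libraries alone. Only a rise could be called for them. Gzmb, the granule protease, was at 4736 and 4910 RPKM in the ILC2/b6 controls and at 4901 and 5104 RPKM with the guide, with no call. Cd7, with 4 sites, rose in Scid.adh.2c2 from 1.5 and 2.62 to 19.8 and 21.1 RPKM (log2 3.07 ± 0.184, limma adjusted p = 1.03e-05). Of the T-lineage list 12 of 26 genes had a site, and in Scid.adh.2c2 5 of the 9 tested with one rose and 3 fell, against 35.1% higher and 22.7% lower over all genes. Lef1, a T cell factor with 6 sites, fell in Scid.adh.2c2 from 34.9 and 41.1 to 8.27 and 8.2 RPKM (log2 -2.13 ± 0.0773, limma adjusted p = 8.07e-07). In the Runx and corepressor list, where 8 of 12 genes had a site, 4 of the 6 tested with one rose in Scid.adh.2c2, against 35.1% over all genes, among them the Groucho corepressor Tle3 by 0.74 ± 0.0415 (limma adjusted p = 7.34e-06).

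The largest changes next to a site in Scid.adh.2c2 were rises from low control levels. Ccl3, a chemokine, went from 0.262 and 0.257 RPKM to 42.2 and 37.6 RPKM (log2 5.73 ± 0.0835, limma adjusted p = 2.64e-08), and Gvin1, an interferon-induced GTPase, rose by 5.66 ± 0.0655 (limma adjusted p = 1.76e-08). Ly6g and Ly6c1, surface proteins of the Ly6 family, and Gm8989 rose by 5.55, 5.50 and 5.34. Ccl3, Ly6g, Ly6c1 and Gm8989 passed the expression filter through the guide libraries alone, so only a rise could be called for them. Gm8989 is a transcribed pseudogene, and Gvin1 and the Ly6 genes belong to families of similar copies among which reads can be split. In ILC2/b6 controls Ly6c1 was at 191 and 211 RPKM and Gvin1 at 19.4 and 23.1 RPKM, so both were expressed there without the guide. The largest falls were Ndrg1 (log2 -3.13 ± 0.361, limma adjusted p = 0.000304), a stress-induced gene whose control libraries differed (117 and 45.9 RPKM), Fbp1, a gluconeogenic enzyme, and Rhox8, Tnfrsf8 and Akap12, with log2 differences of -2.74 to -2.21. Akap12 passed the filter through the controls alone, so only a fall could be called for it.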

How the data were processed

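The authors deposited 8 peak lists, 1 per factor and line, each with a peak score per interval. Per the file headers, a list combines the 2 replicate libraries after an IDR filter and was annotated by HOMER on mm9. The scores are the authors' and were used within a list only. The authors also deposited RPKM values per gene in 2 tables, 1 per line. The submitters' processing notes name Bowtie 1.1.1, HOMER, STAR 2.4.0, RSEM 1.2.25, Trimmomatic and edgeR 3.6.8, and the builds mm9 and NCBIM37, without saying which step used each. Input libraries were not analysed here.

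Peaks overlapped where they shared 1 bp or more, and the gene of a site is the nearest one in the authors' annotation. Each line was fitted alone with limma 3.58.1 (R 4.3.3, trended prior) on log2(RPKM + 0.5), a scale that understates changes of low genes. Genes needed 1 RPKM in at least 2 libraries. A gene that met this only in the libraries of 1 group could be called only as higher in that group. P-values were adjusted by the Benjamini-Hochberg method over all genes of the fit, and a gene was called below 0.05. The fit was also run on simulated counts, with the same spread for every gene and far fewer changed genes than were called here. That setting differs from these data, so it does not measure the error rate of the calls. The steps between low RPKM values gave whole reads, within 0.1 read, for all of the 1968 to 2385 values tried per library, and from them the depth, which covers counting error only.

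Sites, members and gene lists were chosen with earlier results of these data known. The genes named were the 12 nearest to the most sites, the 10 largest rises and 10 largest falls next to a site in ILC2/b6 and 5 of each in Scid.adh.2c2, the 4 genes of each list with the most sites, and Bcl11b, Runx1, Runx3, Cbfb and Gata3. Others, such as the casein genes, Il2rg, Cish, Furin, Il5, Il13, Egr1, Tnfaip3, Fos, Dusp1, Dusp2 and the genes at the highest-scored sites, were chosen after their values were seen. The RNA kit named in the labels does not mark strand, so reads of a gene and its antisense partner cannot be told apart. Alternatives changed the pseudocount, filter, scaling, libraries, replicate block, overlap rule and score limit.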

Additional observations from a re-analysis of the deposited data

Results flagged for a closer look

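Of the genes run under every setting, 11 were called in opposite directions in the lines, with both guide libraries apart from both control libraries in each line. Over all genes tested, 14.5% were called in ILC2/b6 and 57.8% in Scid.adh.2c2, and these genes were named partly for large changes. The share of opposite calls over all genes was not counted, so 11 is not a result about the sites. The difference between the lines was not tested for any of these genes, because the tables of the lines were normalized apart. Log2 differences, Bcl11b guide minus control, are given for ILC2/b6 first and Scid.adh.2c2 second. Among genes with many sites, Btg1 was at -0.24 and 0.42, and Prdm1, the factor Blimp-1 with 12 sites, at -0.25 and 1.71. The ILC2/b6 Prdm1 call was lost without the second guide library (limma adjusted p = 0.0969) and with no expression filter (0.0521). Itgb3, an integrin chain, was at -0.39 and 1.63, and Cxcr4, a chemokine receptor, at 0.33 and -0.42. Ets1 was at -0.18 and 0.33, and Kdm6b at -0.21 and 0.35. The ILC2/b6 calls of Cxcr4, Ets1 and Kdm6b were each lost when the first or the second guide library was left out, with limma adjusted p-values from 0.05 to 0.236, and those of Cxcr4 and Kdm6b also without the second control library (limma adjusted p = 0.0815 and 0.0684). With no expression filter the ILC2/b6 calls of Btg1, Cxcr4, Ets1 and Kdm6b were lost too (limma adjusted p = 0.0511, 0.128, 0.0681 and 0.105), and that of Cxcr4 also with median-centred (0.0557) and quantile-normalized values (0.0872). Tmem86a was at -1.18 and 0.90, and Zpbp2 at -0.98 and 0.77. Scarna17, a short RNA measured poorly here, was at -1.13 and 1.04. Il13, a type 2 cytokine, was at -0.52 and 2.18, and Egr1, an immediate early factor, at -0.78 and 2.42. In Scid.adh.2c2 Prdm1, Zpbp2, Scarna17 and Egr1 passed the expression filter through the guide libraries alone, so only a rise could be called there. In ILC2/b6 Scarna17 passed it through the controls alone, so only a fall could be called.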

How the results depend on the processing

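For the named genes run under every setting, 0 of 96 called results changed direction, and 75 kept their call when genes of every level were tested, 93 with median-centred and 92 with quantile-normalized values. Leaving out 1 library ended the call of 13, counted only in fits that still held the gene. A gene that passed the filter through 2 libraries alone dropped out when either was left out, so its call was not tried there. With no expression filter the ILC2/b6 calls went to 615 over all genes and 377 next to a site. Leaving out 1 library gave 779 to 2199 calls in ILC2/b6 and 484 to 1224 next to a site, and 3700 to 6803 and 1787 to 3193 in Scid.adh.2c2. Genes nearest to a site and to no Bcl11b peak of the line, an alternative added after seeing the data, gave 140 and 567 calls. With the replicate block the counts were 2258 and 1293 in ILC2/b6 and 5921 and 2766 in Scid.adh.2c2. Same-numbered libraries correlated at 0.11 and 0.037 in their deviations, with only 2 pairs a line, so the numbers do not establish pairing.

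At or above the median score of the Runx3 list lay 4842 sites, of which 67.7% carried ILC2/b6 Runx1, 28.3% ILC2/b6 GATA3 and 0.909% Scid.adh.2c2 Runx1. Requiring an overlap of 50% of the shorter interval gave 19.7% with ILC2/b6 GATA3, 0.867% with Scid.adh.2c2 Runx1 and 4.92% with Scid.adh.2c2 GATA3. Counting centres within 1 kb as overlapping gave 34.1%, 27.6%, 0.252% and 8.21% for ILC2/b6 Runx1, ILC2/b6 GATA3, Scid.adh.2c2 Runx1 and Scid.adh.2c2 GATA3. Sites over 1 kb from a start gave 34.1%, 23.6%, 0.0957% and 6.05% in that order. Without repeats, the 4.5S array and random contigs, a setting added after seeing the data, ILC2/b6 GATA3 was at 20.6% and Scid.adh.2c2 Runx1 at 0.584%. The share of whole sites with a RUNX core was not run, because no genome of the peaks' build was used here. The cause of these shifts was not tested.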

Other observations

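The sites were spread unevenly over chromosomes. On chromosome X 61.5% of the ILC2/b6 Runx3 peaks were Bcl11b-free ILC2/b6-only sites, against 45.02% over all chromosomes. Josd2, a deubiquitinase gene, and Dusp6, a phosphatase of ERK kinases, carried sites at -67 bp and -151 bp from their starts. In ILC2/b6 they passed no test, and in Scid.adh.2c2 Josd2 rose by 0.61 and Dusp6 by 0.72 on the log2 scale (limma adjusted p = 0.000169 and 0.000629). Dusp6 passed the expression filter there through the guide libraries alone, so only a rise could be called for it. The casein gene Csn1s2b, with 1 site at a score of 15.4, was at 12.8 and 15.3 RPKM in the ILC2/b6 controls and at 21.1 and 16.7 RPKM with the Bcl11b guide, with no call (limma adjusted p = 0.0578).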
